A study of Mus musculus with 63 samples.

Results

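The miR-183, miR-96 and miR-182 cluster is a group of 3 neighbouring microRNA hairpins on mouse chromosome 6, from which 4 mature miRNAs are described here: mmu-miR-183-5p, mmu-miR-183-3p, mmu-miR-96-5p and mmu-miR-182-5p. These 4 members are 4 of the 2110 mature miRNA loci counted by small RNA sequencing of sorted mouse kidney cells. They were picked by name, but the cluster itself was chosen by measured values from an earlier pass over the same counts. The exact contrast behind that choice is not stated. It was taken to be a rise of mmu-miR-183-5p in proximal tubular (PT) cells between sham and 7 days of obstruction. PT values that involve sham or day 7 libraries are therefore given as a description, with no test. Tests of the members were kept to the other cell types and to PT comparisons between the other groups. The fits behind those PT comparisons still used the sham and day 7 libraries for the filter, the scaling and the spread. Whether values of the other cell types also led to the choice is not known. Tests in those cell types may therefore not be independent of it.

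The study followed young adult male C57BL/6 mice through unilateral ureteric obstruction (UUO), a model in which tying the ureter injures the kidney, and through its reversal. Sham mice had the operation without obstruction, UUO-2 and UUO-7 kidneys were taken after 2 and 7 days of obstruction, and R-UUO kidneys were taken after a further recovery period once a ureter obstructed for 7 days had been reimplanted into the bladder. Per the methods, the mice sequenced were those closest to their group mean of the injury gene Havcr1. From the digested cortex of each mouse, 4 populations were sorted: CD45-CD31+ endothelial cells (ECs), CD45+F4/80hi macrophages (Macs), CD45-CD31- PT cells that bind the lectin LTL, and PDGFR-β+ stromal cells. Each cell type and state had 4 mice, except PDGFR-β+ cells at UUO-7 with 3, because the authors removed 1 library as an outlier, which gave 63 libraries. The 4 cell types of one mouse share its number, while the same number in another state is a different mouse.

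MicroRNAs are short RNAs cut from the arms of a hairpin, and they lower the output of messenger RNAs that pair with their seed, bases 2 to 8 counted from the 5′ end. The miR-183, miR-96 and miR-182 hairpins are conserved among vertebrates and are best known from sensory organs, where they mark the hair cells of the inner ear and the photoreceptors of the retina. The 5p arms are the main products of these hairpins, and the 3p arms are usually rare.

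The mature sequences are shown first because the 5p members have related but distinct seeds, which sets what each can pair with. They come from RefSeq on GRCm38.p6, run 5′ to 3′, and carry the seed in capitals.
mmu-miR-183-5p: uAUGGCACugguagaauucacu
mmu-miR-96-5p: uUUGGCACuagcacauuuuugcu
mmu-miR-182-5p: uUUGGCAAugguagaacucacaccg
mmu-miR-183-3p: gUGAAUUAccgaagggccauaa

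Aligned from base 1, mmu-miR-183-5p and mmu-miR-182-5p were identical at 18 of 22 positions but at only 5 of 7 seed positions. From mmu-miR-183-5p to mmu-miR-182-5p the seed differs by A2U and C8A, with positions counted from the 5′ end. mmu-miR-96-5p was identical to mmu-miR-182-5p at 6 of 7 seed positions and differed there by A8C, and at 12 of 23 positions in all. Its seed also matched that of mmu-miR-183-5p at 6 of 7 positions, with A2U as the difference from mmu-miR-183-5p. No member shared a complete seed with another member. Among the 1675 of 1966 counted miRNA names with a RefSeq mature sequence, the only name outside the cluster with a member's seed was mmu-miR-1271-5p, which carries the seed of mmu-miR-96-5p. It had 9 counts in all, in 4 of 63 libraries, so that the counted miRNAs with the mmu-miR-96-5p seed were almost wholly mmu-miR-96-5p itself.

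The hairpins are printed to show where the counted arms lie, with both mature arms in capitals.
Mir183: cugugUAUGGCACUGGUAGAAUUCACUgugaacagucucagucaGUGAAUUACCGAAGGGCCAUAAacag
Mir96: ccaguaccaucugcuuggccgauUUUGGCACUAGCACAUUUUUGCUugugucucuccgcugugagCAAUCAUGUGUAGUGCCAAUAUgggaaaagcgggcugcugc
Mir182: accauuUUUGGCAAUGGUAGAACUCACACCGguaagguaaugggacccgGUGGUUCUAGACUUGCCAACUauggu

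All 3 hairpins lie on the minus strand of chromosome 6 in GRCm38, the build of the counted loci. Mir183 spans chr6:30169668-30169737, Mir96 spans chr6:30169446-30169551 and Mir182 spans chr6:30165918-30165992. Mir183 and Mir96 are separated by 116 bases, Mir96 and Mir182 by 3453 bases, and the 3 hairpins together span 3820 bases. RefSeq places all 3 inside the bounds of the long noncoding RNA gene Mirc35hg (chr6:30158640-30174125), between the protein-coding genes Nrf1 and Ube2h, and no hairpin lies inside a GENCODE M21 gene other than its own. The Mir183 hairpin begins 4388 bases into Mirc35hg, so it is the first of the 3 in the direction of transcription. Counts of mature miRNAs do not show which transcript they came from.

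The window around the annotated start of Mirc35hg is printed because the abundant members moved together, as described further on. It runs from 250 bases before to 50 bases after the start (chr6:30174076-30174375, minus strand, RefSeq on GRCm38.p6), with matches to GGGCGG and CCAAT on either strand in capitals.
Mirc35hg promoter: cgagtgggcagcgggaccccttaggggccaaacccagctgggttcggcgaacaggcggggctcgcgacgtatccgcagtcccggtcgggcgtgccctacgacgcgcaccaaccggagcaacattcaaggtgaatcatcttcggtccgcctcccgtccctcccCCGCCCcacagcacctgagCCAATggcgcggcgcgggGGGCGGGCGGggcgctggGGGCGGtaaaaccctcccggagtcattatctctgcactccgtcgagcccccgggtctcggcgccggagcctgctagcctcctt

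Its GC content was 70.3%, against a median of 52.7% over 32851 promoters of the same length. It held 4 matches to the GC box GGGCGG, one pair of which overlaps, and 35.7% of promoters held at least 1. A single CCAAT match, which 37.4% of promoters held, lay at position -69 from the start. Such matches describe letters and do not show that a factor binds.

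Across the 63 libraries mmu-miR-182-5p had 280437 counts, mmu-miR-183-5p 17675, mmu-miR-96-5p 1229 and mmu-miR-183-3p 248. The share of mmu-miR-182-5p among cluster counts ran from 90.3% to 97.6% per library, with a median of 93.7%. mmu-miR-183-5p made up 2.43% to 8.81%, with a median of 5.72%. The cluster as counted was thus mainly mmu-miR-182-5p in every library, whatever the cell type. The other arms were close to absent, with 20 counts of mmu-miR-182-3p and 7 of mmu-miR-96-3p in all libraries together. mmu-miR-96-5p was counted in 52 libraries and mmu-miR-183-3p in 44, often with fewer than 10 counts, and these members are therefore given by their counts where they are few. After the filter on low counts, 3 of the 4 members could be fitted within a cell type, since mmu-miR-183-3p did not pass in any. All 4 could be fitted over the 63 libraries.

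Total counts per library ran from 616565 to 10819400, and PT libraries were the shallowest with a median of 1043050. The sorted populations were checked against lists of miRNAs known from each cell type, as summed CPM (counts scaled to a common library total) on the scale of the 63 libraries. The endothelial list (the miR-126a arms) ran from 93099 to 173192 CPM in ECs and reached at most 3524 elsewhere, and the leukocyte list ran from 15320 to 42133 in Macs and reached at most 3672 elsewhere. The stromal list ran from 92519 to 400902 CPM in PDGFR-β+ cells against at most 46035 elsewhere. For the tubule list (miR-192-5p, miR-194-5p, miR-215-5p and miR-204-5p) the range was 17302 to 130406 in PT cells against at most 6269 elsewhere, and the erythroid list stayed at or under 570 CPM in every library. Protein markers of the sort were not measured in these libraries.

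One PT library stood apart from its group. In the R-UUO replicate 1 library of PT cells, mmu-miR-183-5p was at 1518 CPM against 275 to 540 in the other 3 R-UUO libraries, mmu-miR-182-5p at 23308 against 3935 to 8204, and mmu-miR-96-5p at 303 against 22.8 to 31.9. The same library had less of the tubule miRNA miR-192-5p, 18886 CPM against 37781 to 70208, more of the epithelial miR-205-5p, 283 against 16.3 to 36.7, and more of the stromal list, 31334 against 4221 to 6916. Its TMM factor was 0.427 against 0.996 to 1.13 for the other 3, so its distance from them depends on the scaling. With library size alone it held 648 CPM of mmu-miR-183-5p against 274 to 608 and 9944 CPM of mmu-miR-182-5p against 3917 to 9240, close to the highest of the others, while mmu-miR-96-5p still stood at 129 against 22.7 to 35.9. The part of these differences in its cluster levels was not tested.

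Of the 4 sorted cell types, PT cells had the highest mean of both abundant members in every state. In the description that follows, levels are CPM after TMM scaling among the PT libraries, log2 changes come from the edgeR fit over the 16 PT libraries, and no test is attached to comparisons with sham or UUO-7. mmu-miR-183-5p was at 51.8, 11.5, 21.7 and 23.5 CPM in the 4 sham libraries. At UUO-2 it was at 265, 274, 230 and 297 CPM. At UUO-7 it was at 667, 410, 935 and 715 CPM, and in R-UUO at 1518, 522, 275 and 540 CPM. No injured or repairing PT library came down to the highest sham library. Relative to sham, the log2 change of mmu-miR-183-5p was 3.28 on day 2 (SE 0.50), 4.64 on day 7 (SE 0.52) and 4.71 after reversal (SE 0.52), while the median over the 330 PT loci moved by no more than 0.03. Without replicate 1 the R-UUO mean was 446 ± 148 CPM (SD, n = 3) in place of 714 CPM, and the change after reversal was 4.07. With library size alone that change was 3.97.

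mmu-miR-182-5p followed the same course at a higher level. Its sham libraries were at 873, 461, 352 and 449 CPM. They were followed by 2872, 4049, 3457 and 4269 CPM at UUO-2 and by 10177, 6132, 16084 and 10299 CPM at UUO-7. The R-UUO libraries were at 23308, 7460, 3935 and 8204 CPM. Here too the lowest injured library lay above the highest sham library. Its log2 change from sham was 2.78 for UUO-2 (SE 0.46), 4.32 for UUO-7 (SE 0.49) and 4.33 for R-UUO (SE 0.49). Without replicate 1 the R-UUO mean was 6533 ± 2281 CPM (SD, n = 3) in place of 10727 CPM and the change 3.65, and with library size alone the change was 3.56. After reversal neither abundant member had come back to its sham range in any of the 4 mice. Between R-UUO and UUO-7 the log2 difference was 0.01 for mmu-miR-182-5p and 0.07 for mmu-miR-183-5p with all libraries, and -0.68 and -0.58 without replicate 1 of R-UUO.

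The rarer members were almost uncounted in sham PT cells. mmu-miR-96-5p had 1 count in the 4 sham PT libraries together, 66 after 2 days of obstruction, 272 after 7 days and 495 after reversal, of which 404 were in the replicate 1 library. Its summed counts were set against library totals multiplied by their TMM factors. On that scale they were 48.9 times those of sham at UUO-2 (95% exact interval of the count ratio 8.48 to 1961) and 102 times at UUO-7 (18.1 to 4031). mmu-miR-183-3p had 2 counts in sham, then 17 (UUO-2), 95 (UUO-7) and again 17 (R-UUO), and its UUO-7 ratio to sham was 17.8 (4.78 to 149). These intervals cover counting error only and not the spread between mice.

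**Figure D1:**
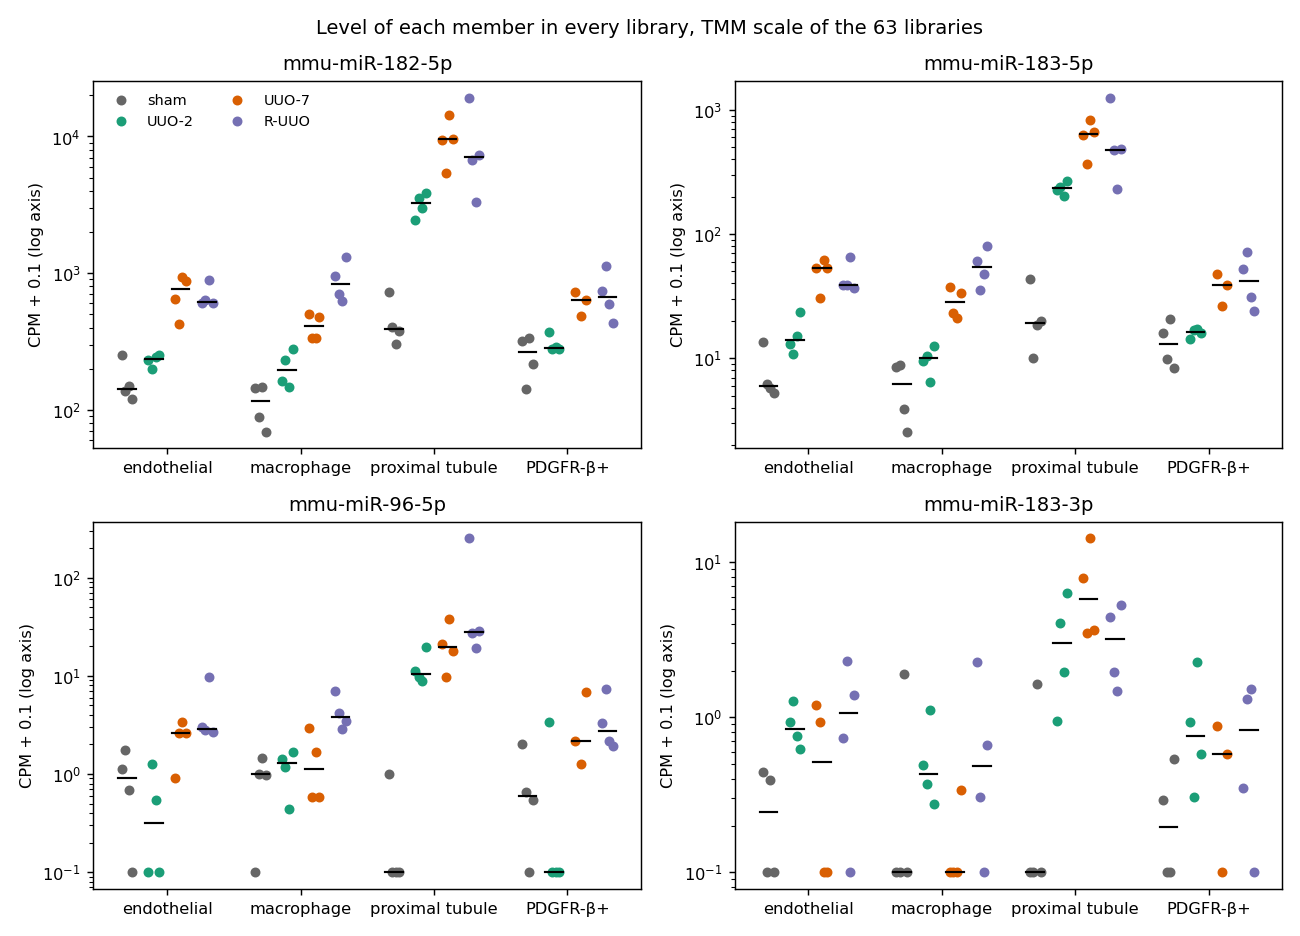
Level of each member in all 63 libraries, in CPM plus 0.1 on a log axis after TMM scaling over the 63 libraries. Each point is 1 library, the black bars are group medians and the colours are the states. In PT cells every injured or repairing library of mmu-miR-182-5p and mmu-miR-183-5p lies above the sham libraries, and 1 R-UUO library lies far above its group for 3 of the 4 members.

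A locus was called where its edgeR adjusted p was under 0.05 and its fold above 1.5, and only then is it said to pass. The step in PT cells that could be tested was R-UUO against UUO-2, which asks whether the cluster stayed where early injury had put it. mmu-miR-182-5p was higher in R-UUO by a log2 of 1.55 (SE 0.44, adjusted p = 0.0442) and mmu-miR-96-5p by 2.83 (SE 0.75, adjusted p = 0.0349). For mmu-miR-183-5p the difference was 1.43 (SE 0.44), with an adjusted p of 0.0606. Of the 3 members tested 2 passed, against 5.76% of the 330 loci. This result rested on the library that stood apart. Without it none of the 3 passed, and the log2 differences were 0.85 for mmu-miR-182-5p (adjusted p = 0.240), 1.06 for mmu-miR-96-5p (adjusted p = 0.297) and 0.76 for mmu-miR-183-5p. Leaving out any single UUO-2 library also left none of the 3 past the test. The same held when only the R-UUO and UUO-2 libraries were fitted. The edgeR differences were then 1.51 for mmu-miR-182-5p and 2.77 for mmu-miR-96-5p (adjusted p = 0.163 each).

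At UUO-2 and in R-UUO the cluster was higher in PT cells than in the other cell types, as were most of the tubule and epithelial miRNAs listed. Compared with the mean of ECs, Macs and PDGFR-β+ cells in the fit over 63 libraries, mmu-miR-182-5p in PT cells at UUO-2 was higher by a log2 of 3.73 (SE 0.25, adjusted p = 6.5e-19) and mmu-miR-183-5p by 4.13 (SE 0.29, adjusted p = 1.8e-18). mmu-miR-96-5p was higher by 4.06 (SE 0.66, adjusted p = 5.2e-07). In R-UUO the differences were 3.59 for mmu-miR-182-5p (SE 0.25), 3.67 for mmu-miR-183-5p (SE 0.28) and 4.36 for mmu-miR-96-5p (SE 0.52), and without PT replicate 1 they were 2.86, 2.98 and 2.56. These 3 members passed in both states, and their calls held under each setting tried. Cell types differ broadly, and 50.4% of 671 loci were called at UUO-2 and 50.2% in R-UUO. An epithelial list (the miR-200 family with miR-205) was higher in PT cells at 5 of 6 loci at UUO-2 (median log2 3.27). In R-UUO it was higher at 6 of 6 (3.23). The tubule list was higher at 4 of 5 loci in both states (4.13 and 4.03), with 1 lower in R-UUO. mmu-miR-183-3p entered this fit through its PT libraries, which reached 14.2 CPM against at most 2.22 CPM in any other library, so its differences of 2.09 at UUO-2 and 1.89 in R-UUO are given with no test. Since sorted cells were pooled per mouse, more cells with the cluster and more of it per cell cannot be told apart.

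In sham kidneys the cell types lay much closer together. On the 63-library scale, mmu-miR-183-5p averaged 22.9 ± 14.3 CPM in PT cells, 13.7 ± 5.77 in PDGFR-β+ cells, 7.60 ± 3.91 in ECs and 5.83 ± 3.15 in Macs (SD, n = 4 each). The ranges of PT cells (9.98 to 43.3) and PDGFR-β+ cells (8.33 to 20.7) overlapped, as did those of ECs (5.13 to 13.4) and Macs (2.47 to 8.67). mmu-miR-182-5p kept the same order, at 452 ± 190 CPM in PT cells, 252 ± 90.3 in PDGFR-β+ cells, 164 ± 60.7 in ECs and 112 ± 39.4 in Macs. PDGFR-β+ cells lay above Macs by a log2 of 1.16 for mmu-miR-182-5p (SE 0.35, adjusted p = 0.00303) and 1.22 for mmu-miR-183-5p (SE 0.42, adjusted p = 0.00994). These 2 of 4 members passed where 61.4% of loci did, and neither passed when libraries were scaled by size alone, where the differences were 0.06 and 0.12. None of the 4 members passed between PDGFR-β+ cells and ECs, where 38.7% of loci did. The differences there were 0.61 for mmu-miR-182-5p and 0.84 for mmu-miR-183-5p, but both passed without the EC sham replicate 1 library (0.90 and 1.26), which held the highest EC sham level of both. Between Macs and ECs none of the 4 passed either, where 56.5% of loci did, and the direction turned with the scaling, from -0.55 to 0.59 for mmu-miR-182-5p and from -0.38 to 0.76 for mmu-miR-183-5p with library size alone.

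With injury the PT level moved away from the rest. At UUO-7 mmu-miR-183-5p averaged 620 ± 195 CPM in PT cells (n = 4), 49.5 ± 13.5 in ECs (n = 4), 37.6 ± 10.7 in PDGFR-β+ cells (n = 3) and 28.8 ± 7.90 in Macs (n = 4). In R-UUO the means were 611 ± 443 CPM in PT cells, 55.7 ± 19.2 in Macs, 44.9 ± 13.6 in ECs and 44.8 ± 21.7 in PDGFR-β+ cells (n = 4 each), and the ranges of the last 3 overlapped. Without replicate 1 the PT mean was 397 ± 142 CPM (n = 3). The lowest PT library at UUO-2, at 201 CPM, was above the highest of any other cell type in any state, 79.9 CPM in a Mac library of R-UUO.

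ECs showed a rise of both abundant members at day 7 that was still there after reversal. mmu-miR-182-5p was at 153, 88.5, 92.0 and 74.0 CPM in sham ECs, scaled among EC libraries, and at 171, 144, 155 and 165 at UUO-2. At UUO-7 it was at 450, 297, 605 and 555 CPM and in R-UUO at 430, 381, 618 and 405. No library of UUO-7 or R-UUO came down to the sham range, whereas the highest sham library lay within the UUO-2 range. The log2 change from sham was 2.23 at UUO-7 (SE 0.24, adjusted p = 9.9e-06) and 2.17 in R-UUO (SE 0.24, adjusted p = 2.0e-05).

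mmu-miR-183-5p in ECs was at 8.08, 3.97, 3.54 and 3.19 CPM in sham and 9.54, 7.86, 9.54 and 15.6 at UUO-2. It reached 37.2, 21.2, 39.8 and 33.6 CPM at UUO-7 and 27.9, 23.3, 45.7 and 24.7 in R-UUO. All 8 of these libraries lay above the highest UUO-2 library, and 1 UUO-2 library overlapped the sham range. The change was 2.81 at UUO-7 (SE 0.34, adjusted p = 2.6e-05) and 2.67 in R-UUO (SE 0.34, adjusted p = 3.4e-05). mmu-miR-96-5p had 21 counts in the 4 sham EC libraries, 43 on day 7 and 69 after reversal. It entered the EC fit through its UUO-7 and R-UUO libraries. By library size no sham library was above 1.21 CPM and no R-UUO library under 1.65. Its log2 changes of 1.52 (SE 0.74) and 2.36 (SE 0.73) are therefore given with no test. Without R-UUO replicate 4 the R-UUO change was 1.84. Both abundant members passed at UUO-7 and in R-UUO, against 11.5% and 16.8% of the 469 loci. At UUO-2 none passed, where 1.71% of loci did, with changes of 0.64 for mmu-miR-182-5p (SE 0.23, adjusted p = 0.211) and 1.16 for mmu-miR-183-5p (SE 0.34, adjusted p = 0.130). Sham replicate 1 decided the UUO-2 comparison, and without it both passed (0.99, adjusted p = 0.0320, and 1.64, adjusted p = 0.0143). Between R-UUO and UUO-7 none passed, where 1.07% of loci did, and the differences were -0.06 (SE 0.23) and -0.13 (SE 0.31).

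In Macs the cluster was highest after reversal. In sham Macs mmu-miR-182-5p was at 224, 139, 241 and 102 CPM, scaled among Mac libraries. The UUO-2 libraries were at 274, 413, 252 and 518, all above sham, and the UUO-7 libraries at 875, 589, 622 and 732. In R-UUO it was at 1582, 1114, 958 and 2232 CPM, all above UUO-7. The log2 change from sham was 1.04 for UUO-2 (SE 0.30, adjusted p = 0.0138), 2.00 for UUO-7 (SE 0.31, adjusted p = 4.6e-05) and 3.06 for R-UUO (SE 0.32, adjusted p = 1.4e-06). The UUO-2 call was lost without sham replicate 2 or 4 or without UUO-2 replicate 2 or 4, with changes between 0.72 and 0.78.

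mmu-miR-183-5p in Macs was at 13.0, 13.6, 6.21 and 3.63 CPM in sham and at 16.0, 18.5, 11.1 and 23.4 at UUO-2. It was at 65.8, 40.7, 39.3 and 50.8 CPM at UUO-7 and at 100, 56.0, 73.1 and 136 in R-UUO. UUO-2 and sham overlapped, as did R-UUO and UUO-7, while every library of the later states lay above UUO-2. The UUO-2 change of 0.91 (SE 0.38) had an adjusted p of 0.0713, while those at UUO-7 (2.43, SE 0.38, adjusted p = 4.6e-05) and in R-UUO (3.31, SE 0.39, adjusted p = 2.9e-06) passed. mmu-miR-96-5p had 14 counts in sham, 20 at UUO-7 and 88 in R-UUO. It entered the Mac fit through its R-UUO libraries, at 3.81 to 10.2 CPM by library size against at most 2.03 in sham. Its R-UUO change of 2.69 (SE 0.74) is therefore given with no test. Of the 2 abundant members in Macs, 1 passed after 2 days, 2 after 7 days and 2 after reversal. The shares of the 457 loci were 27.6%, 43.1% and 31.9%. From UUO-7 to R-UUO mmu-miR-182-5p rose again by 1.06 (SE 0.30, adjusted p = 0.0158), where 19.9% of loci passed. That call was lost without UUO-7 replicate 3 (0.97, adjusted p = 0.0556). Without UUO-7 replicate 2, mmu-miR-183-5p passed as well (1.07, adjusted p = 0.0386).

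In PDGFR-β+ cells both abundant members were higher at UUO-7 and after reversal. mmu-miR-182-5p was at 232, 123, 251 and 172 CPM in sham, scaled among PDGFR-β+ libraries, and at 320, 223, 237 and 215 at UUO-2. It was at 529, 371 and 510 CPM in the 3 UUO-7 libraries and at 601, 818, 414 and 348 in R-UUO, all above the highest sham library. The log2 change was 1.27 at UUO-7 (SE 0.29, adjusted p = 0.00187) and 1.49 in R-UUO (SE 0.27, adjusted p = 4.4e-04). mmu-miR-183-5p was at 11.6, 8.44, 15.7 and 6.65 CPM in sham, and at 12.2, 13.4, 14.1 and 12.2 at UUO-2. It was at 34.5, 20.3 and 30.9 CPM at UUO-7 and at 42.2, 52.0, 21.9 and 19.5 in R-UUO. The changes of 1.43 (SE 0.37, adjusted p = 0.00414) and 1.67 (SE 0.35, adjusted p = 0.00113) passed.

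Under TMM scaling the median over all PDGFR-β+ loci itself lay 0.50 above sham at UUO-7 and 0.40 above it in R-UUO, so the rise of the 2 abundant members over the typical locus was smaller than these values. With library size alone that median was 1.02 and 0.69. Both abundant members passed at UUO-7 and in R-UUO, against 48.2% and 41.7% of the 477 loci. mmu-miR-96-5p had 13 counts in sham, 26 at UUO-7 and 57 in R-UUO. It entered the PDGFR-β+ fit through its injured and reversed libraries. By library size these reached 7.35 CPM at UUO-7 and 5.89 in R-UUO, against at most 1.26 in sham. Its log2 changes of 1.92 (SE 1.26) and 2.03 (SE 1.18) are therefore given with no test. Neither abundant member passed at UUO-2, where 6.29% of loci did and the changes were 0.35 (SE 0.27) and 0.30 (SE 0.35). Between R-UUO and UUO-7 neither passed, where 3.98% of loci did and the differences were 0.21 (SE 0.29) and 0.25 (SE 0.36).

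mmu-miR-183-3p was too rare to test within these cell types. Its counts in ECs were 4 in sham and 26 in R-UUO, a count ratio after TMM scaling of 8.25 (95% exact interval 2.86 to 32.5). On day 7 there were 7 counts, a ratio of 2.53 (0.642 to 11.8). In Macs they were 8 in sham, all in 1 library, and 13 in R-UUO, a ratio of 1.94 (0.747 to 5.41), but 1 on day 7, a ratio of 0.182 (0.0041 to 1.36). In PDGFR-β+ cells they were 2 in sham and 14 in R-UUO, a ratio of 5.10 (1.17 to 46.2), and 4 on day 7, a ratio of 2.72 (0.390 to 30.1). At UUO-7 the intervals of all 3 cell types thus included 1. At UUO-2 there were 10 counts in ECs, a ratio of 5.49 (1.58 to 24.0), and 13 in PDGFR-β+ cells, a ratio of 6.62 (1.50 to 60.4). In Macs there were 15, a ratio of 1.63 (0.650 to 4.45).

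**Figure D2:**
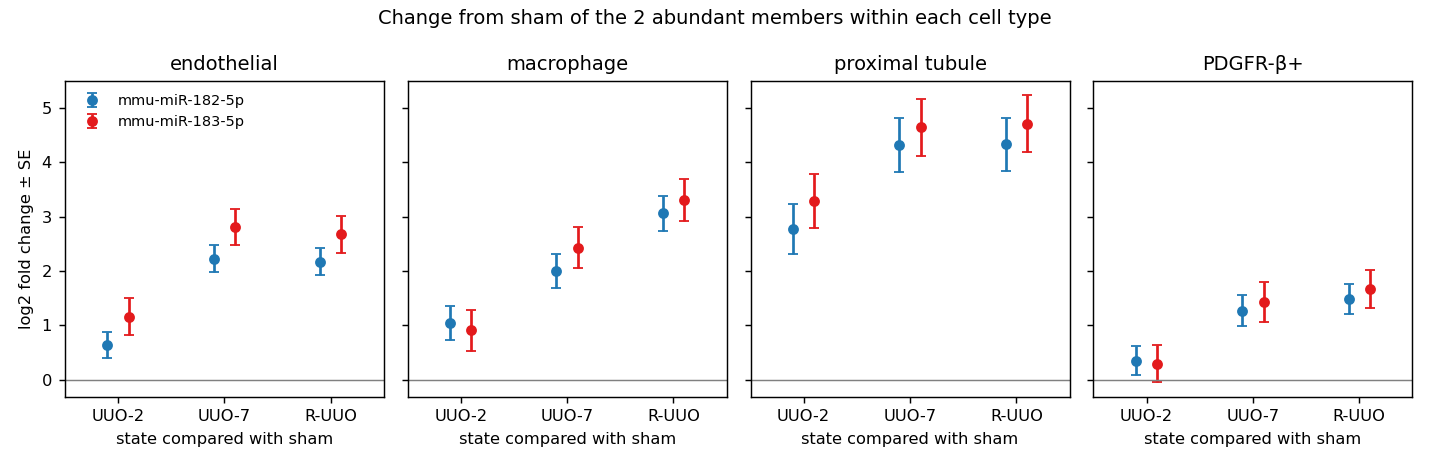
Log2 change from sham of mmu-miR-182-5p and mmu-miR-183-5p within each cell type, with bars of 1 SE from the edgeR fit, at UUO-2, UUO-7 and R-UUO. At UUO-7 the points for PT cells lie at 4.32 and 4.64, those for ECs at 2.23 and 2.81, those for Macs at 2.00 and 2.43 and those for PDGFR-β+ cells at 1.27 and 1.43. PT points are a description.

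Whether the rise to UUO-7 differed among ECs, Macs and PDGFR-β+ cells was tested directly as a difference of log2 changes in the 63-library fit. None of the 4 members passed between Macs and ECs, PDGFR-β+ cells and ECs, or PDGFR-β+ cells and Macs, where 18.2%, 27.9% and 20.4% of the 671 loci did. For mmu-miR-183-5p the change in PDGFR-β+ cells was lower than in ECs by 1.24 on the log2 scale (SE 0.58, adjusted p = 0.111). With the mouse as a block that difference was -1.45 (adjusted p = 0.0353), and without EC sham replicate 1 it was -1.66 (adjusted p = 0.0314). Between Macs and ECs the difference for mmu-miR-183-5p was -0.41 (SE 0.57), and for mmu-miR-182-5p it was -0.26 (SE 0.48).

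Because PT cells held so much more of the cluster than the other cell types, its levels there were set beside those of tubule and epithelial miRNAs in the same mice. As a percentage of the PT library of the same mouse, on the 63-library scale, mmu-miR-183-5p in ECs had a median of 30.9% in sham (26.1% to 61.7%) and 8.19% at UUO-7 (7.36% to 8.55%). For miR-192-5p, the leading tubule miRNA, the EC percentages ran from 2.19% to 3.09% in sham and had a median of 5.29% at UUO-7 (2.96% to 6.84%). At UUO-7 the whole tubule list ran from 4.31% to 8.52% in ECs and mmu-miR-182-5p from 6.51% to 9.24%, so the percentages of the cluster and of the tubule list overlapped there. In Macs mmu-miR-183-5p had a median of 20.0% in sham, 5.53% at UUO-7 (2.53% to 6.38%) and between 4.83% and 20.4% in R-UUO. For miR-192-5p in Macs the range was 2.78% to 4.00% in sham, 2.83% to 5.29% at UUO-7 and 1.92% to 6.53% in R-UUO, and the ranges of the 2 miRNAs overlapped at UUO-7. PDGFR-β+ cells held 69.7% of the PT level of mmu-miR-183-5p in sham and 5.84% at UUO-7 (3.17% to 7.67%), against 2.29% and 3.98% (3.79% to 4.43%) for miR-192-5p. With library size alone the sham medians of mmu-miR-183-5p were 14.3% in ECs, 21.3% in Macs and 33.7% in PDGFR-β+ cells, and those at UUO-7 5.17%, 9.12% and 5.95%. In each of the 3 cell types the median for the cluster on the TMM scale was largest in sham, where the PT level itself was low.

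**Figure D3:**
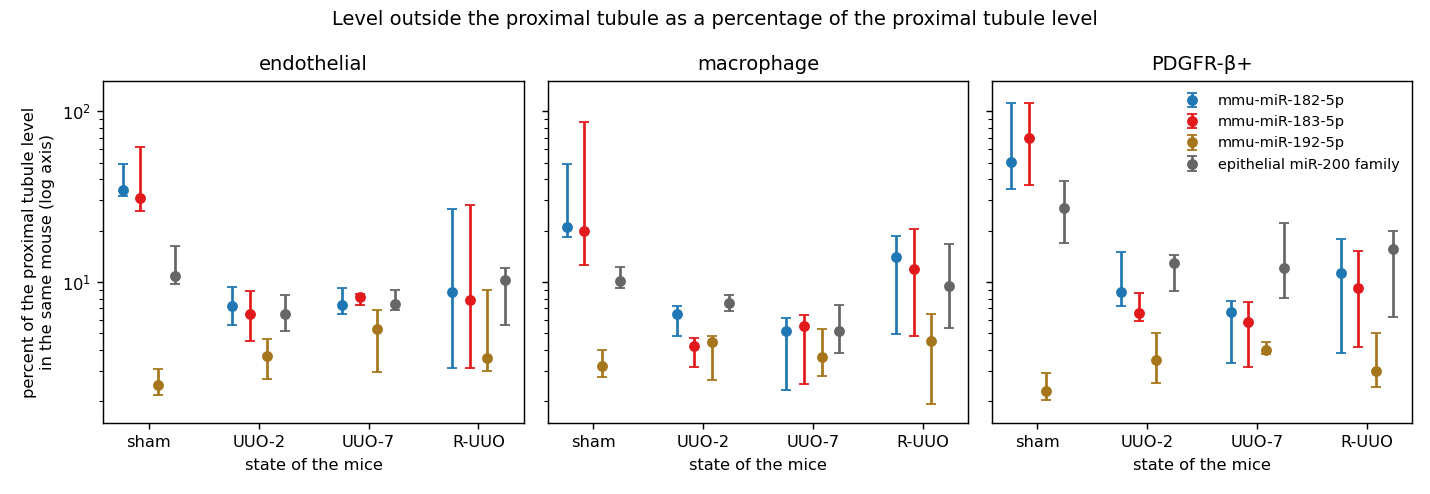
Level in ECs, Macs and PDGFR-β+ cells as a percentage of the PT level in the same mouse, on a log axis. Shown are mmu-miR-182-5p, mmu-miR-183-5p, miR-192-5p and the summed epithelial list (the miR-200 family with miR-205). Points are medians over 4 mice (3 for PDGFR-β+ cells at UUO-7) and bars run from the lowest to the highest mouse. The members start at medians of 20.0% to 69.7% in sham and lie between 5.15% and 8.19% at UUO-7, while miR-192-5p lies between 2.29% and 5.29% in these states.

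In levels rather than percentages, the tubule list was lower in the injured kidney. Its sum in ECs, scaled among EC libraries, ran from 3266 to 3892 CPM in sham and from 1644 to 2360 at UUO-7. In Macs it ran from 5539 to 7742 CPM in sham, from 2408 to 3536 at UUO-7 and from 1847 to 4310 in R-UUO. In PDGFR-β+ cells the range was 2662 to 3302 CPM in sham and 1365 to 1485 at UUO-7. In PT cells themselves, scaled among PT libraries, it was 119586 to 155760 CPM in sham and 37937 to 61351 at UUO-7. A large part of the EC sum was miR-204-5p, with a mean of 1739 CPM in sham ECs and 551 at UUO-7. All tubule list miRNAs had counts in these groups. At UUO-7 the tubule list had 0 loci higher and 1 lower of 5 tested in ECs, where 11.5% of all loci passed. In Macs it had 0 higher and 3 lower of 4, where 43.1% did. In PDGFR-β+ cells it had 0 higher and 3 lower of 4, where 48.2% did. In R-UUO a single tubule miRNA was higher than in sham outside PT cells, namely miR-204-5p in Macs, by 1.70 (SE 0.35, adjusted p = 9.5e-04). The epithelial list, of miRNAs that mark epithelia, held miR-200a, miR-200b, miR-200c, miR-141 and miR-429 of the miR-200 family, and miR-205 from outside it. This list had none of 6 past the test at UUO-7 in ECs or in PDGFR-β+ cells. In Macs at UUO-7 it had 1 higher, miR-200c-3p by 1.41 (SE 0.38), and 2 lower, among them miR-141-3p, which fell by 0.87 (SE 0.20). From UUO-7 to R-UUO mmu-miR-182-5p rose again in Macs. In the same comparison 2 of 6 epithelial list loci and 1 of 4 tubule loci were higher, where 19.9% of all loci passed. The part of tubule RNA in the rise of the cluster outside PT cells was not tested.

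Markers of other sorted cells moved beside the cluster as well. In Macs the stromal list was higher than in sham at 3 of 5 loci at UUO-7 (median log2 change 1.65) and 5 of 5 in R-UUO (3.18), and at 4 of 5 between R-UUO and UUO-7, and its sum ran from 3123 to 7774 CPM in sham, 5516 to 8598 at UUO-7 and 10463 to 15296 in R-UUO. In ECs the leukocyte list was higher at 3 of 4 loci at UUO-7 (median 2.17) and 2 of 4 in R-UUO (1.45), although its sum ran from 1810 to 2207 CPM in sham and 1316 to 1991 at UUO-7. The stromal list in ECs had none of 5 higher at UUO-7 and 1 in R-UUO. In PDGFR-β+ cells the leukocyte list was higher at 3 of 4 loci at UUO-7 (median 2.24), with a sum of 60.6 to 143 CPM in sham and 233 to 581 at UUO-7, and both endothelial loci were lower. The part of these cells in the cluster levels was not tested.

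In PT cells the same lists are given as a description, since the contrast with sham was taken to have chosen the cluster. At UUO-2, where 19.1% of PT loci met the call rule, and at UUO-7, where 43.0% did, the 2 miR-200 family miRNAs on chromosome 6 lay above sham. These were miR-141-3p, by 2.38 (SE 0.51) and 3.40 (SE 0.53), and miR-200c-3p, by 2.24 (SE 0.43) and 3.02 (SE 0.43). The other 4 miRNAs of the epithelial list had log2 differences between -0.72 and 0.78. Among the 4 tubule list loci, miR-192-5p lay at -1.62 relative to sham at UUO-7 (SE 0.32) and miR-204-5p at 3.40 (SE 0.25), in opposite directions. The stromal list sum had a median of 2848 CPM in sham, 8424 at UUO-2 and 8798 at UUO-7. In each injured state 2 of its 4 loci met the call rule as higher. For the leukocyte list the medians were 131, 254 and 277 CPM, with 1 of 3 loci higher in each. Of the 2 endothelial loci 0 met the rule. The part of other cells in the PT levels was not tested.

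The loci whose log2 CPM ran most like that of mmu-miR-183-5p were sought among all loci past the filter, as a description over libraries that share cell types and mice. Over the 63 libraries mmu-miR-182-5p had a Pearson r of 0.99, mmu-miR-96-5p 0.86 and mmu-miR-183-3p 0.69 with mmu-miR-183-5p. Outside the cluster the 5 highest were miR-375-3p (0.86), miR-200c-3p (0.83), miR-653-5p (0.82) and the overlapping loci of miR-9-5p and miR-9b-3p on chromosome 3 (0.80 each). Over the 16 PT libraries they were miR-204-5p (0.97), miR-224-5p (0.97), the overlapping loci of miR-9-5p and miR-9b-3p on chromosome 7 (0.97 each) and miR-31-5p (0.96). Without the PT library that stood apart miR-204-5p stayed first, with r of 0.98. Loci of one miRNA name can share reads, so the values of the miR-9-5p loci are uncertain.

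The likeness was not the same in every cell type. In PT cells miR-204-5p went from a mean of 132 ± 24.8 CPM in sham to 1394 ± 294 at UUO-7 and was at 1182 ± 351 in R-UUO (SD, n = 4). In ECs miR-204-5p went the other way, from 1739 CPM in sham to 551 at UUO-7 (log2 change -1.66, SE 0.22, adjusted p = 8.5e-05), where mmu-miR-183-5p rose. miR-375-3p ran from 98.5 CPM in sham PT cells to 1507 at UUO-7 and 741 in R-UUO, and in ECs from 47.1 to 187 and 115, and in Macs from 45.3 to 267 and 404.

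**Figure D4:**
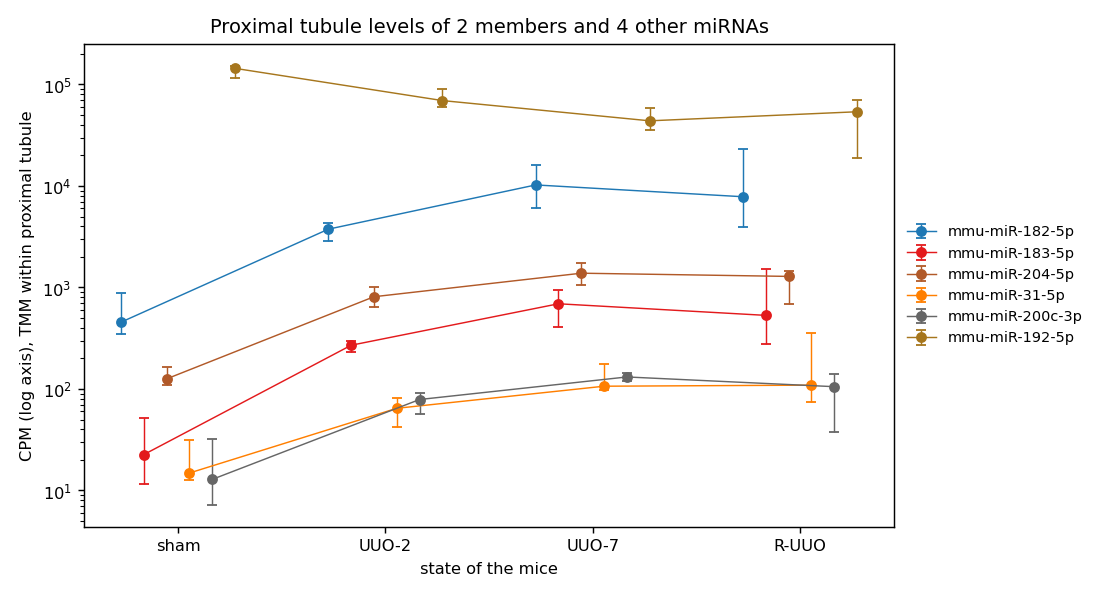
Levels in PT cells of mmu-miR-182-5p and mmu-miR-183-5p with 4 other miRNAs, in CPM on a log axis after TMM scaling among PT libraries. Points are medians of 4 mice and bars run from the lowest to the highest. The cluster, miR-204-5p, miR-31-5p and miR-200c-3p are above their sham range at UUO-7, while miR-192-5p runs down from sham.

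The proportion of the members to each other was also compared. In PT cells the count of mmu-miR-182-5p was 10.8 to 15.1 times that of mmu-miR-183-5p at UUO-2 and 14.3 to 15.4 times in R-UUO. Its mean log2 ratio differed by 0.12 between the 2 states (exact permutation test, two-sided, p = 0.457, adjusted p = 0.457 over 3 ratios). The smallest p that 4 against 4 mice allow is 0.0286. For mmu-miR-96-5p to mmu-miR-183-5p the difference was 0.77 (exact permutation p = 0.114, adjusted p = 0.257), and for mmu-miR-183-5p to mmu-miR-183-3p it was 0.98 (exact permutation p = 0.171, adjusted p = 0.257). Without replicate 1 of R-UUO these differences were 0.38 and 0.71. None of the 3 ratios passed. In the replicate 1 library of R-UUO, mmu-miR-96-5p reached 0.20 times the count of mmu-miR-183-5p, whereas over the UUO-2 PT libraries the ratio ran from 0.040 to 0.074.

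Ratios were also compared between PT cells and each other cell type in the 8 mice of UUO-2 and R-UUO, by an exact sign-flip permutation test over mice with 9 comparisons. Relative to mmu-miR-183-5p, mmu-miR-182-5p was lower in PT cells than in PDGFR-β+ cells by a mean of 0.31 on the log2 scale (lower in 7 of 8 mice, exact p = 0.0156, adjusted p = 0.0938). It was lower than in Macs by 0.37 (lower in 7 of 8 mice, exact p = 0.0313, adjusted p = 0.0938), and the difference from ECs was -0.11 (exact p = 0.398, adjusted p = 0.445). The ratio of mmu-miR-183-5p to mmu-miR-183-3p was higher in PT cells than in ECs by 1.98 (higher in 7 of 8 mice, exact p = 0.0234, adjusted p = 0.0938), with few counts of mmu-miR-183-3p. None of the 9 comparisons passed after adjustment, although 3 did with a pseudocount of 1 count and 3 without pairing the cell types of a mouse.

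In sham ECs the ratio of mmu-miR-182-5p to mmu-miR-183-5p was 18.9 to 26.0, and the 12 libraries of the other EC states ran from 10.6 to 18.4, below every sham library. This was seen after the values were known and is given without a test. In sham Macs the ratio ran from 10.2 to 38.8, with 14 to 77 counts of mmu-miR-183-5p per library, and covered the range of the injured Mac libraries of 13.1 to 22.8.

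**Figure D5:**
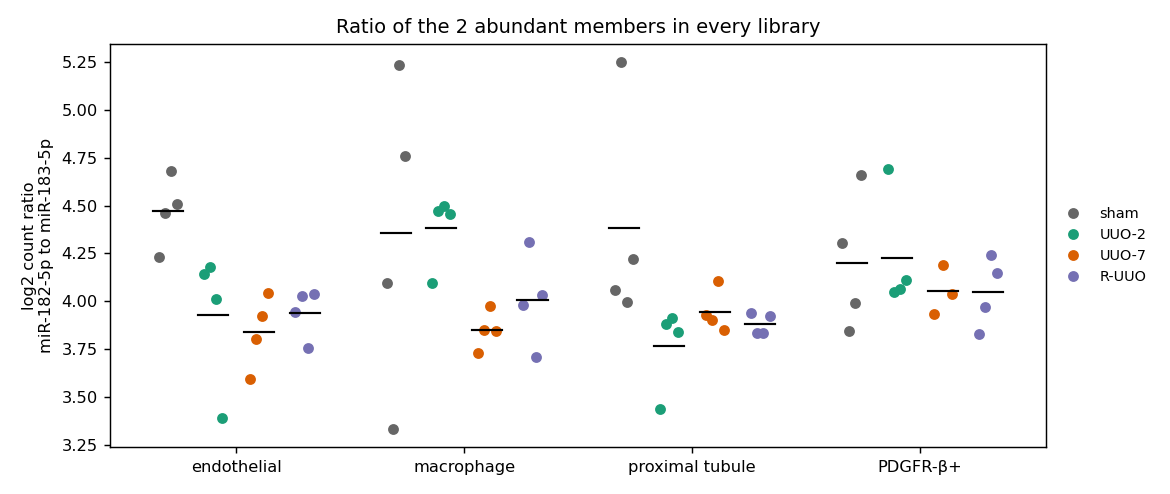
Log2 of the count ratio of mmu-miR-182-5p to mmu-miR-183-5p, with 0.5 added to each count, in every library by cell type and state. Bars are group means. Most libraries lie near a log2 ratio of 4, sham libraries are the most spread group in Macs and in PT cells, and sham ECs lie above the other EC libraries.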

How the data were processed

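Small RNA was sequenced from 4 sorted cell types of mouse kidneys in 4 states (sham, obstructed for 2 or 7 days, and reversed). The authors trimmed reads with Trim Galore 0.4.1 and cutadapt 1.1, mapped them with Bowtie through ShortStack against GRCm38 and miRBase, and deposited raw counts per locus of each mature miRNA. The placement of multi-mapping reads and the use of strand are not given in the sources used here.

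Counts were filtered (filterByExpr), TMM-scaled and tested with the quasi-likelihood test of edgeR 4.0.16 in R 4.3.3, with Benjamini-Hochberg adjustment over all loci past the filter. Changes between states were fitted within each cell type (for PT cells 330 loci, PDGFR-β+ cells 477, Macs 457 and ECs 469), and cell types and differences of changes in 1 fit over 63 libraries (671 loci). A call needed an adjusted p under 0.05 and a fold above 1.5, and a difference of changes an adjusted p under 0.05. Levels are CPM after TMM scaling. Ratios between members used counts plus 0.5 and exact permutation tests in scipy 1.17.1. The scripts were checked on simulated counts.

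The members and lists were chosen with earlier results of these data known. Named loci were the 4 members, the other arms of their hairpins, loci with a member's seed, the 5 loci most correlated with mmu-miR-183-5p over 63 libraries and over 16 PT libraries, and, of each list, the counts of calls and the 2 largest changes; other loci of the lists were named after their values were seen. Titles give the 4 cell types of a mouse 1 number, so an alternative paired them by animal. Deviations from group means of 2 cell types of a mouse correlated between -0.295 and 0.267 over 93 pairs. Alternatives were library size scaling, no filter, DESeq2 1.42.0, fits of the compared groups only, blocks and leaving out each library, and the correlation without 1 PT library was added after seeing the data. Total counts of 616565 to 10819400 per library limit the precision of the rare members, and intervals cover counting error only. No 2 replicates agreed within sampling noise (chi-square per degree of freedom of at least 8.96).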

Additional observations from a re-analysis of the deposited data

Results flagged for a closer look

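In 8 of the 60 groups of 4 libraries checked, 1 library lay farther from the others than the 95% limit of Dixon's test, where chance gives about 1 group in 20 for normally distributed values. That rate holds for none of the 5 groups in which the other 3 libraries had no count, since any single count there passes the limit. The largest was PT R-UUO replicate 1, with 303 CPM of mmu-miR-96-5p (404 counts) against 22.8 to 31.9 in the other 3 libraries. EC sham replicate 1 had 8.08 CPM of mmu-miR-183-5p (78 counts) against 3.19 to 3.97, and EC R-UUO replicate 4 had 6.79 CPM of mmu-miR-96-5p (18 counts) against 1.62 to 2.05. The 5 groups with counts in 1 library were mmu-miR-96-5p in PDGFR-β+ UUO-2 replicate 1 (2.87 CPM, 8 counts) and PT sham replicate 1 (1.08 CPM, 1 count), and mmu-miR-183-3p in Mac sham replicate 3 (2.92 CPM, 8 counts), PT sham replicate 3 (1.80 CPM, 2 counts) and Mac UUO-7 replicate 5 (0.368 CPM, 1 count).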

How the results depend on the processing

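With library size alone in place of TMM, the number of members called became 2 in Macs at UUO-2, 1 between R-UUO and UUO-2 in PT cells and 0 between PDGFR-β+ cells and Macs in sham. The PT change of mmu-miR-183-5p from sham to R-UUO became 3.97. The same scaling turned the sign of mmu-miR-182-5p between R-UUO and UUO-7 in PDGFR-β+ cells (-0.016), between Macs and ECs in sham (0.59, and 0.76 for mmu-miR-183-5p) and in the difference of UUO-7 changes between Macs and ECs (0.082). Without the filter 2 members and with DESeq2 1 member were called in ECs at UUO-2, and with DESeq2 2 between R-UUO and UUO-7 in Macs. Fitted on the compared groups only, 0 were called between R-UUO and UUO-2 in PT cells.

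The same number in another state is a different mouse, and deviations of same-numbered libraries across states correlated between -0.332 and 0.270. With that replicate block, 0 members were called between R-UUO and UUO-7 in Macs and 0 between R-UUO and UUO-2 in PT cells. The change of mmu-miR-96-5p in ECs of R-UUO was then 2.32. With the mouse as replicate block, 1 member was called in the difference of UUO-7 changes between PDGFR-β+ cells and ECs. The ratio of mmu-miR-183-5p to mmu-miR-183-3p passed in PT cells against ECs with a pseudocount of 1 count (2.06) and with no replicate block (1.98), and against PDGFR-β+ cells with the pseudocount (1.71). The ratio of mmu-miR-182-5p to mmu-miR-183-5p passed against PDGFR-β+ cells under both (-0.31 and -0.31) and against Macs with no replicate block (-0.37).

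Leaving out 1 library at a time, the members called ranged from 0 to 2 in ECs at UUO-2 and 0 to 1 in Macs at UUO-2. Between R-UUO and UUO-7 in Macs 0 to 2 of the abundant members were called. Between R-UUO and UUO-2 in PT cells 0 to 3 members were. In sham the range was 0 to 2 between PDGFR-β+ cells and ECs and 1 to 2 between PDGFR-β+ cells and Macs. For the difference of changes between PDGFR-β+ cells and ECs it was 0 to 1. Signs turned where differences were near 0. These were R-UUO against UUO-7 in ECs for mmu-miR-182-5p (-0.28 to 0.063) and in PDGFR-β+ cells for mmu-miR-182-5p (-0.044 to 0.38) and mmu-miR-183-5p (-0.031 to 0.44), Macs against ECs in sham for mmu-miR-183-5p (-0.66 to 0.038) and the difference of changes between Macs and ECs for mmu-miR-182-5p (-0.55 to 0.086). The cause of these shifts was not tested. Counts of mmu-miR-96-5p and mmu-miR-183-3p limited what could be tested.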
